A study of Mus musculus with 6 samples.

Results

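Genomic imprinting is the expression of a gene from 1 parental chromosome. The inherited mark is DNA methylation laid down in the egg or sperm at an imprint control region, and the zinc finger protein ZFP57 with TRIM28 and DNMT1 keeps it through cell division. Many imprinted loci pair a paternally expressed gene or noncoding RNA with maternally expressed neighbours, and many of the genes act on growth, the placenta or the brain. The 34 genes described here are the imprinted genes outside the Peg10-Sgce and Dlk1-Dio3 clusters, taken by symbol from a given list and matched by Ensembl ID to GENCODE M21 (GRCm38). They are 34 of the 49315 genes in the count table and lie at 16 loci on 10 chromosomes. From general knowledge of mouse imprinting, 17 are expressed from the paternal allele and 15 from the maternal allele, several of these only in brain or placenta, while Gnas and Grb10 depend on the transcript or tissue. The reads were counted per gene and not per allele, so the parental origin is background and was not measured.

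RNA was sequenced from TKO, a mouse ovarian cancer line, in 3 libraries of an MNRR1-knockout clone (KO) and 3 libraries of TKO cells that keep MNRR1, labelled wild type (WT). TKO stands for triple knockout, so both groups carry the line's own knockouts, which the labels do not name; no treatment, time or animal age is given. MNRR1 is the product of Chchd2, a protein of mitochondria and nucleus, and the comparison asks how its loss goes with the transcriptome. All KO libraries carry 1 clone name, so what differs between clones and what differs with MNRR1 cannot be told apart, and nothing says that replicates were separate cultures, so p-values measure the spread between these libraries only. Total counts were 33226463 to 40983999 per library. Chchd2 counts went with the labels in all 6 libraries, at 581 to 717 in KO and 11824 to 13506 in WT. KO replicate 2 lay nearest to WT, with correlations of log CPM of 0.967 to 0.970 to the WT libraries against 0.952 to 0.960 for the other KO libraries. Of the ovarian marker list, Wt1 was at 677 CPM in KO against 719 CPM in WT. The keratin genes Krt8 and Krt18, both lower in KO, were at 283 and 275 CPM there, and Krt19, higher in KO, at 481 CPM. Larger falls were those of Krt7 from 299 CPM in WT to 81.3 CPM in KO, Msln from 281 to 108 and Gata4 from 30.7 to 10.9 CPM. Pax8 had 3 counts in KO and 34 in WT, and Foxl2 had 1 count in each.

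Of the 34 genes, 28 had enough counts to be tested, and 16 of them were called. A call means an adjusted p under 0.05 from the quasi-likelihood test of edgeR, with Benjamini-Hochberg (BH) adjustment across the 16033 tested genes. In KO 5 were higher and 11 lower, where 27.8% of all tested genes were called higher and 27.8% lower, 55.7% in all. The share of tested imprinted genes called, 57.1%, was thus near that of all genes. The median log2 change of the 28 was -0.17 against 0.01 for all tested genes. Their median size of change regardless of direction was 0.35, the same as for all tested genes. Changes of at least 2-fold were called for 7 of the 28, 1 higher and 6 lower, beside 8.10% and 6.01% of all tested genes. For 18 of the 28 the genotypes were fully apart, with KO above WT for 6 and below it for 12, beside 64.0% of all tested genes, 32.1% above and 31.9% below.

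By parental origin, 12 of the 17 paternally expressed genes were tested, of which 0 rose, 6 fell and 6 were not called, with a median log2 change of -0.35. Of the 15 maternally expressed genes 14 were tested, of which 4 rose, 4 fell and 6 were not called, with a median of -0.04. The share called was 50% for the paternally and 57.1% for the maternally expressed genes, both near the 55.7% of all tested genes. Of all tested genes, 27.8% were called higher and 27.8% lower. The 5 paternally expressed genes that fell by at least 2-fold were Zdbf2, Snrpn, Mest, Plagl1 and Impact. The maternally expressed ones past that size were Cdkn1c, which fell, and Slc22a18, which rose. At that size 8.10% of all tested genes were called higher and 6.01% lower. The paternally expressed genes together gave 1172 ± 13.1 CPM in KO against 1423 ± 51.9 CPM in WT (SD, n = 3 each; CPM is the read count scaled to a fixed library total). Without Peg3, which made most of that sum, it was 146 ± 3.10 in KO and 382 ± 19.2 CPM in WT. Most of this fall lay in Mest, from 192 CPM in WT to 47.6 CPM in KO, and Impact, from 94.8 to 36.6 CPM. The maternally expressed genes together gave 1506 ± 42.0 CPM in KO against 1334 ± 14 CPM in WT. Igf2r went from 293 CPM in WT to 420 CPM in KO and Zim1 from 319 to 425 CPM, while 4 maternally expressed genes fell. Such sums follow the most abundant genes and do not describe a shift of every gene of an origin. The difference between the origins was not tested, and in bulk RNA fewer expressing cells and less RNA per cell cannot be told apart.

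**Figure D1:**
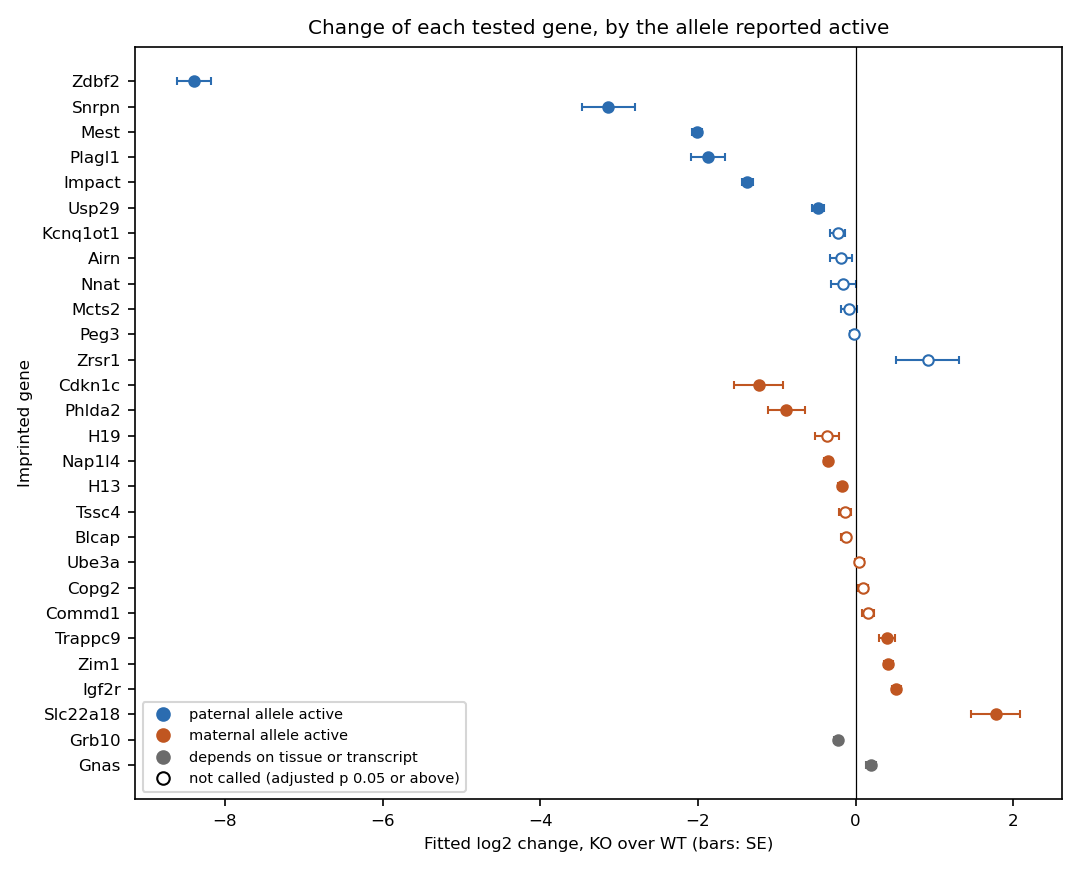
Fitted log2 change of KO over WT (x axis) for the 28 tested imprinted genes (y axis), with bars for the SE; blue marks genes expressed from the paternal allele, orange the maternal allele, grey those that depend on tissue or transcript, and open points genes not called. Blue points reach from -8.39 for Zdbf2 to 0.91 for Zrsr1 with no filled point above 0, while filled orange points lie on both sides, from -1.23 for Cdkn1c to 1.77 for Slc22a18.

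RefSeq promoter windows of GRCm38.p6, 250 bases before to 50 after an annotated start, show what the starts of the paternally expressed genes that fell most look like. The windows of Zdbf2, Mest, Snrpn and Plagl1 are given because these genes fell by at least 2-fold, and that of Peg3 because this paternally expressed gene was not called. Capitals mark TGCCGC or its reverse complement GCGGCA, the letters that ZFP57 binds when methylated. Mest has 3 windows and Snrpn 4, and for each a window that holds these letters is given.

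Zdbf2, upstream start, chr1:63200108-63200407, plus strand: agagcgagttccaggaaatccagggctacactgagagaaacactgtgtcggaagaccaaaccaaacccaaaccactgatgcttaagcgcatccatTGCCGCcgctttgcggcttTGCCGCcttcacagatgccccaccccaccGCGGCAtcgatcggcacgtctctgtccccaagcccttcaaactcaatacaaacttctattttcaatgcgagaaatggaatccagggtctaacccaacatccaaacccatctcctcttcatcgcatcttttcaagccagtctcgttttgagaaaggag
Zdbf2, downstream start, chr1:63273019-63273318, plus strand: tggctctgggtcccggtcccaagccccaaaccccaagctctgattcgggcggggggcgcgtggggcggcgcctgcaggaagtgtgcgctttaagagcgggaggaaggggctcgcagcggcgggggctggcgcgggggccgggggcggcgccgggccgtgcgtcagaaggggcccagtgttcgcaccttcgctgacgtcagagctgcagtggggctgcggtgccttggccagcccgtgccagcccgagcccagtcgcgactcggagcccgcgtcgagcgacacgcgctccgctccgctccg
Mest, chr6:30737800-30738099, plus strand: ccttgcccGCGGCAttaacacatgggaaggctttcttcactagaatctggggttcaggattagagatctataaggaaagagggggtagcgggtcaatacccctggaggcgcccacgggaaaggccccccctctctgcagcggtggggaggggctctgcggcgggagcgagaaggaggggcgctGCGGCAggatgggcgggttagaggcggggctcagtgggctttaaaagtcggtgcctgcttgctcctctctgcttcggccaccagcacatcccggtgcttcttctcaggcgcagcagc
Plagl1, chr10:13090582-13090881, plus strand: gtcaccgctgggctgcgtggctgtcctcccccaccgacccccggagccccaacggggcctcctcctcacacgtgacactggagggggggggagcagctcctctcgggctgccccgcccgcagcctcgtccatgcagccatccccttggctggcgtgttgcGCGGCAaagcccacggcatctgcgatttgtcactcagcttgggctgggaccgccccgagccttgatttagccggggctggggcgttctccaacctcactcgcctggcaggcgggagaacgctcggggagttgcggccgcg
Snrpn, chr7:60005150-60005449, minus strand: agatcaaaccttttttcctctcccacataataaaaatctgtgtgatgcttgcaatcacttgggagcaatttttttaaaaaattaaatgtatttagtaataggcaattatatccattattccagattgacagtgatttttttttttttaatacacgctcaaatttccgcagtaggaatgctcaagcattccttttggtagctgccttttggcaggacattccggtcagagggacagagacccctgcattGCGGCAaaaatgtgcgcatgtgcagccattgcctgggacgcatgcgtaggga
Peg3, chr7:6730370-6730669, minus strand: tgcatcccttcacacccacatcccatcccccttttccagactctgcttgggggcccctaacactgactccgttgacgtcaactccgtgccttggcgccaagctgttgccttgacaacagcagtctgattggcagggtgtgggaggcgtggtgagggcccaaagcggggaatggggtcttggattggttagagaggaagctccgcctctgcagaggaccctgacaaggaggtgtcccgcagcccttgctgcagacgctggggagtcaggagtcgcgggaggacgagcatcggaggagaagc

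The upstream Zdbf2 window held these letters at 3 places, the Mest window at 2, and those of Plagl1 and Snrpn at 1 place each. The downstream Zdbf2 window and the Peg3 window held none. Windows were found for 28 of the 34 genes, 42 windows in all, some of which overlap, and 12 of the 42 (28.6%) held TGCCGC on either strand, against 11.6% of 32817 RefSeq windows of the same length. Of the 6 genes called lower by at least 2-fold, Impact and Cdkn1c had no window in the table. The other 4 held the letters in at least 1 window, for Zdbf2 only in the upstream one, which lies outside the gene body of the annotation. So did 7 of the other 24 genes with a window (Commd1, Copg2, Grb10, Igf2, Mcts2, Nnat and Zim1) and 13.1% of 26994 RefSeq genes. Of these, Mcts2 and Nnat are paternally expressed and were not called. The window of Usp29, which is paternally expressed and fell, held none of the letters. A gene with more windows has more places to hold the letters, and Zdbf2, Mest and Snrpn have several. Of the Snrpn windows only the one given held them, and the Mest windows that did overlap each other. The shares by gene were not corrected for the number of windows per gene. The letters GCCATNTT of YY1 were in 1 of the 42 windows, that of Ube3a, which held no TGCCGC, and in 6.04% of all windows. The CTCF motif searched was in 0 of the 42 and in 0.0366% of all windows. The 42 windows held a median of 17 CpG dinucleotides against 7 over all windows. Of the windows given, those of Zdbf2 held 15 upstream and 38 downstream, and the others 26 at Plagl1, 17 at Mest, 13 at Peg3 and 7 at Snrpn. The Snrpn windows not given held 2, 3 and 4, and those of Mest 8 and 17. A run of letters in a window is a description of sequence and shows neither binding nor methylation.

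Zdbf2 (ENSMUSG00000027520, chromosome 1, 63273265 to 63314576, plus strand) encodes a zinc finger protein that bears on growth and feeding after birth in mice. It had 2, 1 and 2 counts in KO replicates 1 to 3 and 528, 541 and 651 counts in WT replicates 1 to 3. It was thus near absent from every KO library, at or under the 3 counts that a count of 0 allows, while WT libraries held 15.1 to 16.4 CPM. The ratio of WT to KO was 363, with a 95% counting interval of 155 to 1119 (exact binomial, which covers counting error only), and the fitted log2 change was -8.39 (SE 0.21, edgeR adjusted p = 8.99e-10), the eleventh greatest in size of 16033. The nearest other tested gene lies 92779 bases from Zdbf2. Of 7 tested genes within 200 kb of Zdbf2, 1 rose, Ino80d at 0.23, 0 fell and 6 were not called, with log2 changes of -0.41 to 0.52. Of all tested genes, 27.8% were called higher and 27.8% lower. Gpr1, an imprinted neighbour, was below the filter with 11 counts in KO and 16 in WT.

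Mest (ENSMUSG00000051855, chromosome 6, 30723547 to 30748465, plus strand) encodes an alpha/beta-hydrolase fold protein of mesoderm. It was at 46.7, 50.3 and 45.9 CPM in KO and 188, 183 and 205 CPM in WT replicates 1 to 3, so that every KO library lay below every WT library. The KO level was 24.8% of that of WT, a log2 change of -2.01 (SE 0.06, edgeR adjusted p = 6.43e-09). Copg2, which encodes a coat protein subunit of Golgi vesicles, ends within Mest on the opposite strand, and 912 exon bases are common to both, 23.1% of the Mest exons and 17.8% of those of Copg2. Copg2 was at 44.9 ± 2.93 CPM in KO against 42.1 ± 1.33 CPM in WT (SD, n = 3 each; log2 change 0.09, edgeR adjusted p = 0.270), and passed without KO replicate 2 (edgeR adjusted p = 0.0407) and with scaling by library totals (log2 change 0.21, edgeR adjusted p = 0.0250). The log2 ratio of Mest to Copg2 counts was 0.09 ± 0.17 in KO and 2.19 ± 0.09 in WT libraries (n = 3 each), a difference of -2.10 with no overlap between genotypes (exact two-sided permutation p = 0.1). In level per length, as TPM, the count per exon length scaled to a fixed total, Mest was the fourth of the 34 genes in WT at 159 TPM and the eleventh in KO at 42.4 TPM.

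Plagl1 (ENSMUSG00000019817, chromosome 10, 13060504 to 13131694, plus strand) encodes a zinc finger transcription factor, also called Zac1, that restrains growth. Its counts were 30, 47 and 41 in KO and 116, 111 and 187 in WT replicates 1 to 3. Both genotypes were low, with KO at 0.859 to 1.16 CPM and WT at 3.28 to 4.71 CPM, and they did not overlap. The log2 change was -1.88 (SE 0.22, edgeR adjusted p = 3.68e-05). Of 6 other tested genes within 200 kb of Plagl1, 5 fell and 0 rose, where 27.8% of all tested genes were called lower. By at least 2-fold, 2 of the 6 fell, beside 6.01% of all tested genes. Phactr2, a protein phosphatase 1 and actin regulator gene 76023 bases away and itself reported as imprinted, fell from 3.72 ± 0.553 to 0.205 ± 0.103 CPM (SD, n = 3 each), a log2 change of -4.14 (edgeR adjusted p = 2.03e-06).

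Impact (ENSMUSG00000024423, chromosome 18, 12955852 to 12992950, plus strand) encodes a protein that binds GCN1 and so holds back the eIF2 alpha kinase GCN2. It was at 36.4, 34.6 and 39.0 CPM in KO and 92.3, 92.0 and 100.1 CPM in WT replicates 1 to 3. The genotypes did not overlap, and the KO level was 38.6% of that of WT (log2 change -1.37, SE 0.06, edgeR adjusted p = 8.75e-08). Osbpl1a, the tested protein-coding neighbour within 200 kb, was at a log2 change of 0.04 and was not called, whereas Gm26407, a gene model inside Impact on the same strand, rose by 0.78 on the log2 scale (edgeR adjusted p = 0.0156).

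The Prader-Willi and Angelman region on chromosome 7 holds the paternally expressed Snrpn, Ndn, Magel2 and Peg12 and the maternally expressed Ube3a. Snrpn (ENSMUSG00000102252, chromosome 7, 59982495 to 60140219, minus strand) encodes SmN, a spliceosome protein found mostly in brain. Its counts were 4, 8 and 9 in KO and 70, 48 and 59 in WT replicates 1 to 3. These are low counts in both genotypes without overlap, 0.181 ± 0.0603 CPM in KO against 1.64 ± 0.320 CPM in WT (SD, n = 3 each), a log2 change of -3.14 (SE 0.33, edgeR adjusted p = 2.09e-05). The gene model Gm38393 covers 27.3% of the Snrpn exon bases on the same strand, so reads of the shared part could go to either gene. Its change was in the same direction, from 1.41 CPM in WT to 0.107 CPM in KO, a log2 change of -3.71 (edgeR adjusted p = 2.82e-05).

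Ube3a, the ubiquitin ligase gene of Angelman syndrome, which is imprinted in neurons, was at 154 ± 7.23 CPM in KO against 150 ± 7.04 CPM in WT (SD, n = 3 each; log2 change 0.04, edgeR adjusted p = 0.530), and was called higher with scaling by library totals (log2 change 0.17, edgeR adjusted p = 0.0142). It overlaps Snhg14, the noncoding host that silences it in neurons, which was at 5.83 CPM in KO against 4.78 CPM in WT and was not called. The log2 ratio of Snrpn to Ube3a was -9.68 ± 0.52 in KO and -6.52 ± 0.22 in WT libraries (n = 3 each), with no overlap (exact two-sided permutation p = 0.1). Ndn, a MAGE family gene, was below the filter with 0 counts in the KO libraries and 2, 4 and 7 in WT replicates 1 to 3. With 3 counts for the whole KO group, as the most that 0 allows, against the 13 WT counts, Ndn would be 4.57-fold lower in KO. This value leaves out the counting error of the WT counts and so is not a strict bound. Magel2 and Peg12 had 0 counts in all 6 libraries, which allows up to 0.0732 to 0.0903 CPM in a single library.

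**Figure D2:**
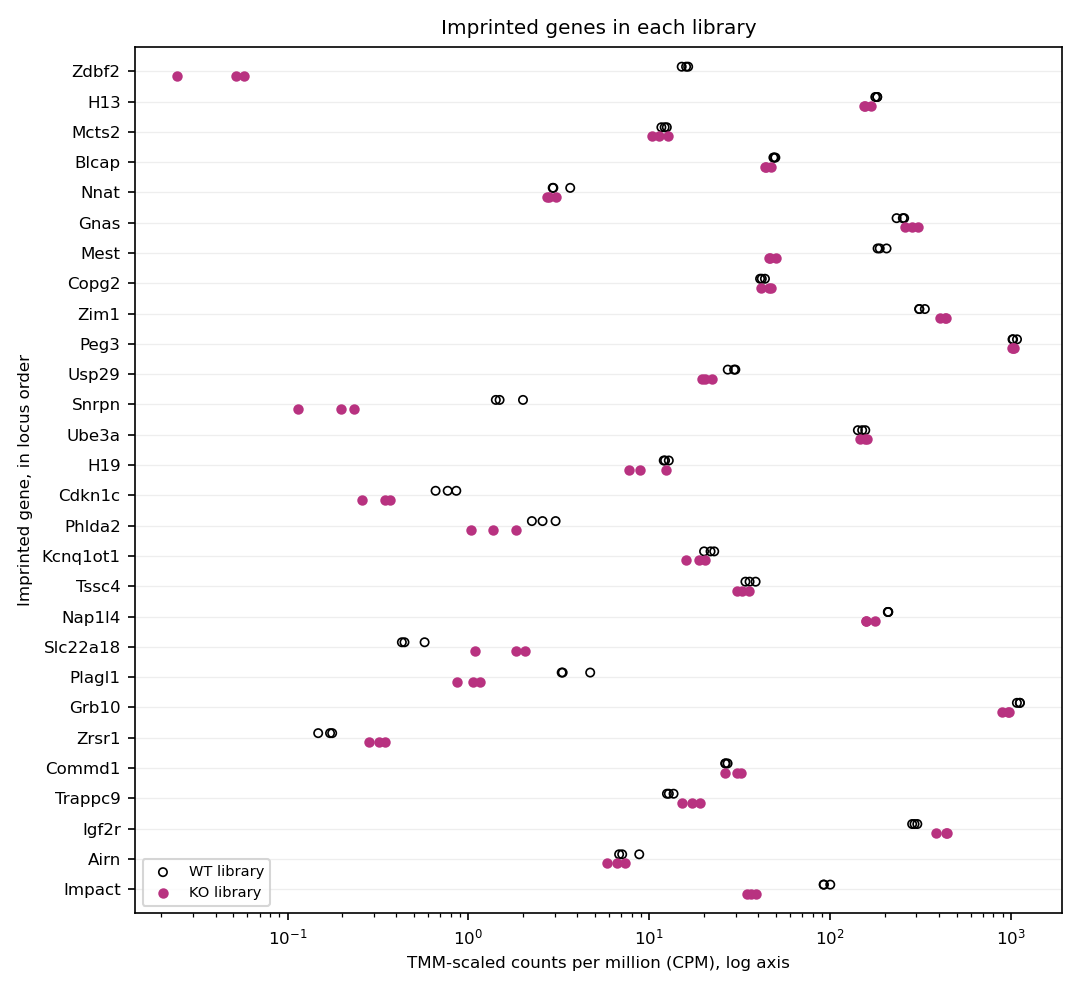
Level of the 28 tested imprinted genes in every library, as TMM-scaled CPM on a log axis (x axis), with genes in locus order (y axis); open circles are the 3 WT libraries and filled circles the 3 KO libraries. Zdbf2, Mest, Snrpn, Plagl1 and Impact show KO circles clear to the left of WT, Slc22a18 clear to the right, and Peg3 circles of both genotypes lie together between 1017 and 1079 CPM.

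The Peg3 domain on chromosome 7 held some of the most abundant of these transcripts. Peg3, a large zinc finger protein gene, was at 1026 ± 11.9 CPM in KO against 1042 ± 32.8 CPM in WT (SD, n = 3 each). Its log2 change of -0.02 was not called (SE 0.05, edgeR adjusted p = 0.730) and turned to 0.10 with scaling by library totals and 0.03 with upper quartiles. Usp29, a deubiquitinase gene that starts beside Peg3 on the other strand and is also paternally expressed, fell from 28.8 ± 1.47 to 20.7 ± 1.43 CPM (log2 change -0.48, edgeR adjusted p = 3.63e-04). Zim1, the maternally expressed zinc finger gene next to Peg3, rose from 319 ± 13.2 to 425 ± 19.8 CPM (log2 change 0.42, edgeR adjusted p = 9.97e-05). The log2 ratio of Peg3 to Zim1 was 1.27 ± 0.06 in KO and 1.71 ± 0.02 in WT, and that of Peg3 to Usp29 was 5.63 ± 0.10 in KO and 5.18 ± 0.08 in WT libraries (n = 3 each). Neither ratio overlapped between genotypes (exact two-sided permutation p = 0.1 for each), the smallest p that this design allows, and the ratios do not depend on the scaling.

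At Igf2r on chromosome 17, the maternally expressed Igf2r encodes the receptor that clears IGF2 and carries mannose 6-phosphate enzymes to lysosomes. It was at 436, 385 and 440 CPM in KO and 303, 284 and 293 CPM in WT replicates 1 to 3. All KO libraries lay above all WT libraries, and the log2 change was 0.52 (SE 0.06, edgeR adjusted p = 4.51e-05). Airn, the paternally expressed noncoding RNA that silences Igf2r in cis from a start inside it on the other strand, was at 6.62 ± 0.764 CPM in KO against 7.56 ± 1.08 CPM in WT (SD, n = 3 each; log2 change -0.19, edgeR adjusted p = 0.266). The log2 ratio of Airn to Igf2r was -5.99 ± 0.08 in KO and -5.28 ± 0.24 in WT libraries (n = 3 each), with no overlap (exact two-sided permutation p = 0.1). Whether the counting used strand is not stated, so some Airn counts could be unspliced Igf2r reads.

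The Kcnq1ot1 domain on chromosome 7 went both ways. Kcnq1ot1, the paternally expressed noncoding RNA that silences the domain in cis, was at 18.4 ± 2.31 CPM in KO against 21.6 ± 1.40 CPM in WT (SD, n = 3 each) and was not called (log2 change -0.23, edgeR adjusted p = 0.0707). It passed without KO replicate 1 (edgeR adjusted p = 0.0407) or KO replicate 2 (0.0405), and without the filter on low counts (0.0341). Slc22a18 (ENSMUSG00000000154, chromosome 7, 143473736 to 143499334, plus strand), a maternally expressed transporter-like gene, had 72, 44 and 71 counts in KO and 20, 15 and 17 in WT replicates 1 to 3. Every KO library lay above every WT library, with KO replicate 2 the lowest of the KO libraries at 1.08 CPM. The log2 change was 1.77 (SE 0.31, edgeR adjusted p = 5.91e-04). The genes next to it fell. Cdkn1c, which encodes the cell cycle inhibitor p57, had 12, 15 and 10 counts in KO and 23, 26 and 34 in WT (log2 change -1.23, SE 0.31, edgeR adjusted p = 0.00615). The groups did not overlap, but Cdkn1c stayed under 1 CPM in every library.

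Phlda2, which encodes a pleckstrin homology domain protein that limits placental growth, had 48, 75 and 40 counts in KO and 106, 87 and 89 in WT replicates 1 to 3. It fell by 0.88 on the log2 scale (SE 0.23, edgeR adjusted p = 0.00799) with no overlap. Nap1l4, a histone chaperone gene, fell from 209 ± 0.645 to 164 ± 11.1 CPM (SD, n = 3 each; log2 change -0.35, edgeR adjusted p = 3.49e-04). Tssc4 was at a log2 change of -0.14 and was not called (edgeR adjusted p = 0.145), and passed without KO replicate 3 (edgeR adjusted p = 0.0422). Its body lies inside Trpm5, an ion channel gene on the other strand that shares 11.9% of the Tssc4 exon bases and rose by 1.67 on the log2 scale (edgeR adjusted p = 0.00192). Kcnq1, which holds Kcnq1ot1 on the other strand, was at 0.616 CPM in KO against 0.341 CPM in WT and was not called (edgeR adjusted p = 0.0580). The log2 ratio of Kcnq1ot1 to Cdkn1c was 5.78 ± 0.13 in KO and 4.81 ± 0.09 in WT libraries (n = 3 each; exact two-sided permutation p = 0.1).

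At the neighbouring H19-Igf2 locus, the maternally expressed long noncoding RNA H19 was at 12.4, 8.87 and 7.71 CPM in KO and 12.8, 12.0 and 12.2 CPM in WT replicates 1 to 3. KO replicate 1 lay among the WT libraries while the other KO libraries lay below them. The log2 change was -0.36 (SE 0.15) and missed the threshold (edgeR adjusted p = 0.0668), and without KO replicate 1 it was -0.57 (edgeR adjusted p = 0.00395). H19 was also called lower by DESeq2 (adjusted p = 0.0406) and limma voom (0.0427), and by edgeR without the filter (0.00593) or with the replicate number as a block (0.0211). Igf2, the paternally expressed growth factor gene of this locus, had 1 count in KO replicate 1 and 0 in the other 5 libraries, so no ratio to H19 can be read from it. Grb10, an adaptor gene that dampens insulin and IGF receptor signals, was the most abundant of the 34 genes per length, at 365 ± 11.7 TPM in KO and 397 ± 22.0 TPM in WT (SD, n = 3 each). In scaled CPM it fell by 0.22 on the log2 scale (SE 0.05, edgeR adjusted p = 0.00482), a call lost with scaling by library totals (log2 change -0.10, edgeR adjusted p = 0.0667).

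The small loci on chromosome 2 changed little. H13, the signal peptide peptidase gene, was at 160 ± 8.09 CPM in KO against 181 ± 2.52 CPM in WT (SD, n = 3 each), a log2 change of -0.18 (edgeR adjusted p = 0.0143). The call of H13 was lost without KO replicate 1 (edgeR adjusted p = 0.0746) or WT replicate 2 (0.0567) and with scaling by upper quartiles (0.0648) or library totals (0.427, log2 change -0.05). Mcts2, the paternally expressed retrocopy of Mcts1 in an intron of H13, was at a log2 change of -0.08 (edgeR adjusted p = 0.520), which turned to 0.04 with library totals, and reads may be shared with Mcts1. Nnat, which encodes the membrane proteolipid neuronatin, and Blcap, which holds it in an intron, were at -0.16 and -0.13 and were not called (edgeR adjusted p = 0.440 and 0.0888). Blcap passed without KO replicate 2 (edgeR adjusted p = 0.0152). The ratios of Mcts2 to H13 and of Nnat to Blcap overlapped between genotypes (exact two-sided permutation p = 0.5 and 0.9).

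Gnas, whose main product is the stimulatory G protein alpha subunit, rose from 247 ± 12.6 to 283 ± 22.2 CPM (SD, n = 3 each; log2 change 0.19, edgeR adjusted p = 0.0270). The call was lost when KO replicate 1 or 3 was left out (edgeR adjusted p = 0.0774 and 0.0713) and when any 1 of WT replicates 1 to 3 was (0.0641, 0.0514 and 0.129). Counts per gene add up the maternal, paternal and biallelic Gnas transcripts, and antisense Nespas was not called (log2 change -0.11, edgeR adjusted p = 0.699). Trappc9, a vesicle tethering gene, rose from 13 ± 0.568 to 17.1 ± 1.97 CPM (log2 change 0.40, edgeR adjusted p = 0.00558), and so did Peg13, the paternally expressed noncoding RNA in an intron of it, at a log2 change of 0.61 (edgeR adjusted p = 0.00986). Its neighbour Kcnk9, a potassium channel gene, had 0 counts in all 6 libraries.

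Zrsr1, a paternally expressed retrogene related to the splicing factor U2AF, had 12, 13 and 11 counts in KO and 6, 5 and 7 in WT replicates 1 to 3. The KO values lay above all WT values, but the log2 change of 0.91 (SE 0.40) missed the threshold (edgeR adjusted p = 0.0732), and it passed with scaling by library totals (0.0448). Commd1, a copper and NF-kB regulator gene whose body holds Zrsr1 on the other strand, was at 0.16 and was not called (edgeR adjusted p = 0.117). Commd1 passed without KO replicate 1 (edgeR adjusted p = 0.0303) and with scaling by upper quartiles (0.0436) or library totals (0.0127). Both genes have 412 exon bases in common, 9.17% of the Zrsr1 exons and 6.94% of those of Commd1. Over all libraries Zrsr1 had 54 counts and Commd1 6296, so reads of the shared part could bear on the Zrsr1 count and on their ratio. Rasgrf1, a Ras exchange factor gene, was below the filter with 9, 6 and 20 counts in KO and 2, 1 and 8 in WT replicates 1 to 3, and the genotypes overlapped.

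Of 11 pairs of genes of 1 locus, 9 had enough counts in both genes to be read. In 7 of the 9 the ratio did not overlap between genotypes, where 64.0% of single tested genes did not either, and the share for other pairs of genes was not computed. Each of the 7 gave an exact two-sided permutation p of 0.1, the smallest that 3 against 3 libraries allow, or 0.122 with BH adjustment over 11 pairs. No pair could therefore pass 0.05. The paternally expressed partner was the relatively lower one in KO for Mest with Copg2, Snrpn with Ube3a, Peg3 with Zim1 and Airn with Igf2r, and the relatively higher one for Kcnq1ot1 with Cdkn1c and Zrsr1 with Commd1. The remaining pair, Peg3 with Usp29, joins genes of the same parental origin.

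**Figure D3:**
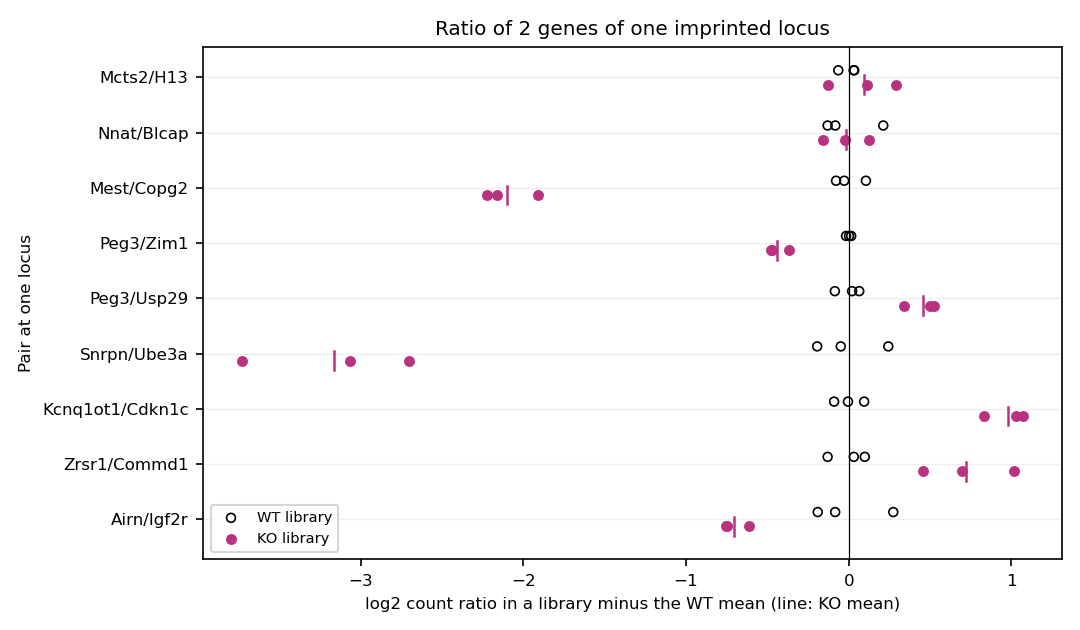
Log2 ratio of the counts of 2 genes of the same locus in each library, less the WT mean of that ratio (x axis), for the 9 pairs with enough counts (y axis); open circles are WT libraries, filled circles KO libraries and the short line the KO mean. KO circles lie apart from WT circles in 7 pairs, by up to -3.16 for Snrpn over Ube3a and 0.98 for Kcnq1ot1 over Cdkn1c, and mix with them for Mcts2 over H13 and Nnat over Blcap.

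Genes within 200 kb of the 34 but not among them numbered 93 in the test, of which 18 rose, 27 fell and 48 were not called, or 48.4% called beside 55.7% of all tested genes. Changes of at least 2-fold were called for 4 higher and 10 lower of the 93, beside 8.10% and 6.01% of all tested genes. The neighbourhood differed from locus to locus: at Zdbf2 1 of 7 neighbours was called, at Plagl1 5 of 6. Within 200 kb of Mest, Cep41 fell by 0.66 on the log2 scale (edgeR adjusted p = 3.76e-05) against 2.01 for Mest.

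**Figure D4:**
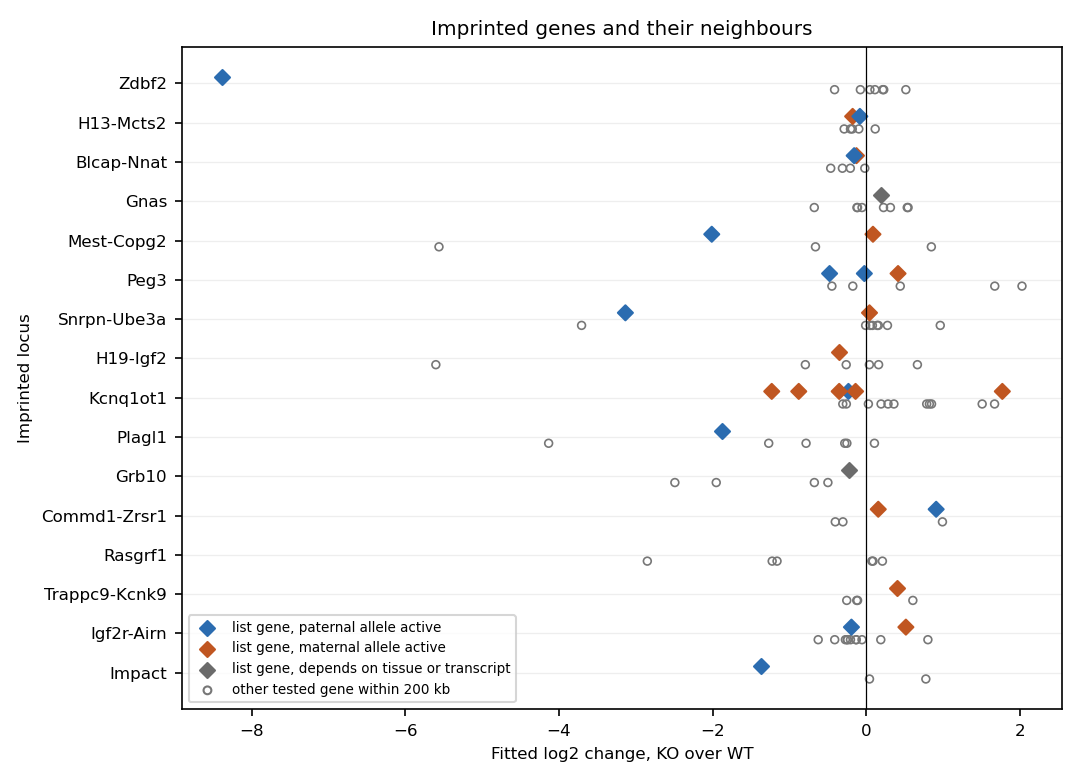
Fitted log2 change of KO over WT (x axis) at the 16 imprinted loci (y axis), with diamonds for the tested list genes, coloured by the allele reported active, and open circles for other tested genes within 200 kb. The Zdbf2 diamond at -8.39 stands beside neighbours between -0.41 and 0.52, while the Plagl1 diamond at -1.88 has neighbours down to -4.14.

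A second list held 37 further genes reported as imprinted in mouse, of which 23 were tested, 6 rose, 8 fell and 9 were not called, beside 55.7% of all tested genes called, with a median log2 change of -0.01. Among these, the amino acid transporter gene Slc38a4 fell from 21.1 ± 1.37 to 1.01 ± 0.325 CPM (SD, n = 3 each; log2 change -4.38, edgeR adjusted p = 3.04e-08). Gatm, the creatine synthesis enzyme gene, was at a log2 change of -4.04 and the phospholipid flippase gene Atp10a at -3.55 (edgeR adjusted p = 9.67e-08 and 1.70e-05). The list of imprint guards and chromatin writers had 21 tested genes, of which 7 rose, 8 fell and 6 were not called, again beside 27.8% of all tested genes in each direction. Zfp445, another zinc finger guard of imprints, rose by 0.38 on the log2 scale (edgeR adjusted p = 1.02e-04). Zfp57 and Trim28 fell by 0.25 and 0.19 on the log2 scale and Dnmt1 by 0.36, while Dnmt3a rose by 0.70 and the demethylase gene Tet1 by 1.53 (edgeR adjusted p = 0.0134, 0.00935, 1.15e-04, 1.76e-05 and 3.18e-04).

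Markers of other cell types were low. The 6 leukocyte markers summed to 3.19 to 3.61 CPM in KO and 4.74 to 10.9 CPM in WT, with Cd3e at 0, and the 3 endothelial markers to 1.5 to 1.6 CPM in KO and 5.44 to 5.93 CPM in WT. The 4 neuron markers, given because several of these genes are imprinted in neurons, summed to 15.1 to 18 CPM in KO and 30.2 to 32.1 CPM in WT, nearly all of it Map2. Snap25 had 0 counts, Rbfox3 had 1, and Syt1 fell by 2.85 on the log2 scale. The 11 ovarian markers summed to 1905 to 1938 CPM in KO and 2493 to 2665 CPM in WT, with 1 higher and 5 lower of 9 tested. The part of these shifts in the changes of the imprinted genes was not tested.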

How the data were processed

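RNA was measured in 3 KO and 3 WT libraries, built with the NEBNext Ultra II RNA kit from 1.3 ug of total RNA, per the labels' protocols. The authors deposited raw counts of reads per Ensembl gene, not normalized. Build GRCm38 (mm10), the aligner STAR 2.5.2b and the read counter package Subread 1.5.2 are named, per the submitters' processing notes, next to bcl2fastq 2.17, DESeq2 and Trimmomatic 0.36. No source used here states the annotation release, strand setting or treatment of multi-mapping reads. Of 49315 gene IDs, 49056 matched GENCODE M21 and 259 did not.

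Counts were filtered with filterByExpr (minimum count 10), scaled with TMM factors and fitted with edgeR 4.0.16 in R 4.3.3, with a robust quasi-likelihood test of genotype over all 16033 genes kept and BH adjustment. The script was tested on simulated data. Levels are TMM-scaled CPM; TPM divides counts by exon length. Each ratio of 2 genes added 0.5 counts to both. Alternatives were other scalings, filters and tests (DESeq2 1.42.0, limma 3.58.1 voom), the replicate number as a block and omission of each library.

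The members, lists and tests were chosen with earlier results of these data known. Listed members could all be named; those called with at least a 2-fold change and 1 CPM were given per library (Igf2r, H19, Cdkn1c, Phlda2, Zrsr1, Rasgrf1 and Ndn were added after their values were seen). Other genes were the up to 4 called genes of a list with the greatest change, genes that overlap a member, and counted neighbours. Zfp57, Zfp445, Trim28, Dnmt1, Gpr1, Ino80d, Osbpl1a, Cep41, single markers and Chchd2 were named after their values were seen.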

Additional observations from a re-analysis of the deposited data

How the results depend on the processing

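Of the 16 called genes, 4 of the 5 higher and 9 of the 11 lower kept direction and call in every alternative that gave them a value, and the exceptions, Gnas, H13 and Grb10, are given above. Of the 12 uncalled genes, 4 (Airn, Mcts2, Nnat and Peg3) stayed uncalled in every alternative. Scaling by library totals moved the median log2 change of all genes from 0.01 to 0.13, the calls over all genes from 4463 higher and 4462 lower to 5771 and 3294 (63.7% higher), the higher imprinted genes from 5 to 9 and the median of tested imprinted genes from -0.17 to -0.045. With upper quartiles that median was -0.11. The changes that turned sign were those of Mcts2 (0.038 with library totals) and Peg3 (0.10 with library totals, 0.029 with upper quartiles). Leaving out 1 library gave 4 to 6 higher and 10 to 13 lower imprinted genes, a median of -0.20 to -0.16 (-0.20 without WT replicate 1), and 3789 to 4938 higher and 3798 to 5064 lower genes in all. With the replicate block there were 5 higher and 12 lower imprinted genes, H19 being the gene added (edgeR adjusted p = 0.0211). Same-numbered libraries did not deviate together (correlations of -0.06, 0.05 and 0.03). With 3 libraries per genotype this cannot show that equal numbers share no culture or day, which the labels do not state. Depth limits the genes with few or no counts, Magel2, Peg12, Kcnk9, Igf2, Ndn, Rasgrf1, Zrsr1, Cdkn1c and Snrpn among them.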

Other observations

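Genes that act with Igf2, Igf2r and Grb10 were called in both directions, as were genes in general. Of 14 tested genes of the IGF pathway list, 5 rose, 4 fell and 5 were not called, beside 55.7% of all tested genes called, with a median log2 change of 0.15. Igfbp2 and Igfbp3, which encode IGF binding proteins, fell by 2.87 and 1.47 on the log2 scale (edgeR adjusted p = 2.24e-06 and 5.41e-04). Irs2, an adaptor of the insulin and IGF receptors, fell by 0.91 (edgeR adjusted p = 4.40e-06), and Pappa, a protease that cleaves IGF binding proteins, rose by 1.18 (edgeR adjusted p = 3.73e-05). The receptor gene Igf1r, named after its value was seen, fell from 86.9 ± 2.28 to 60.7 ± 3.46 CPM (SD, n = 3 each; edgeR adjusted p = 3.33e-05). Insr, the insulin receptor gene, rose from 28.8 to 51.8 CPM (edgeR adjusted p = 9.69e-05). The binding protein genes Igfbp4 and Igfbp6 rose by 0.55 and 0.74 on the log2 scale (edgeR adjusted p = 1.38e-05 and 0.00164). These 3 were also named after their values were seen.

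In level per length, the order of the imprinted genes in WT libraries ran from Grb10 (397 ± 22.0 TPM) through Peg3 (255 ± 9.59), Nap1l4 (221 ± 10.05), Mest (159 ± 7.66), Zim1 (129 ± 5.91) and Igf2r (103 ± 1.97) to Gnas (72.2 ± 5.98), H13 (66.3 ± 3.45) and Tssc4 (64.0 ± 4.34 TPM; SD, n = 3 each). Gnas, H13 and Tssc4 lay within each other's spread. In KO libraries Zim1 at 185 ± 12.5 TPM stood level with Nap1l4 at 186 ± 8.31 TPM, and Impact was at 25.1 ± 2.08 TPM against 60.3 ± 2.90 TPM in WT.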
